A study of Mus musculus with 12 samples.

Results

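The chemosensory receptor genes analysed here were the olfactory (Olfr), vomeronasal (Vmn1r and Vmn2r), trace amine-associated (Taar) and taste (Tas1r and Tas2r) receptor genes of the mouse adrenal gland. They were chosen by name alone: every gene whose single symbol in the platform's probe table began with one of these family names, taken at its probe set with the highest mean signal. This gave 209 of the 16244 genes listed with 1 symbol. They were 191 Olfr genes, 9 vomeronasal genes (6 Vmn2r and 3 Vmn1r), 8 taste receptor genes (5 Tas2r and 3 Tas1r) and the single gene Taar5. Of the Olfr genes, 156 were class II, the class typical of land vertebrates, 30 were class I, the older class shared with fish, and 5 could not be classed. RefSeq lists 1520 protein-coding mouse genes with a symbol of these families. How many of these the deposited table's brightness minimum removed, and how many lie on probe sets listed with several genes, was not tested.

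All of these receptors are G protein-coupled receptors with 7 membrane-spanning segments that detect chemicals. An olfactory sensory neuron of the nose expresses 1 olfactory receptor gene and signals through the G protein subunit Gnal, adenylyl cyclase 3 and a cyclic nucleotide-gated channel. Vomeronasal receptors detect pheromones and signal through Gnai2 or Gnao1. Sweet taste is detected by the pair Tas1r2 with Tas1r3, umami by Tas1r1 with Tas1r3, and bitter taste by the Tas2r receptors. Aspartame, the sweetener given in this study, tastes sweet to people through the human form of the sweet receptor, whereas the mouse receptor responds to it poorly. Some of these receptors are also known from tissues outside the nose and mouth.

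The adrenal glands came from male C57Bl/6J mice aged 21 weeks, in 4 groups. CON mice received neither agent. CGP mice were exposed during development, to postnatal day 28, to CGP 39551 at 5 mg per kg, a drug that blocks glutamate at the NMDA receptor. ASP mice had aspartame at 46 mg per kg in the drinking water, beginning in utero through the mother, and ASP+CGP mice had both. Each group is a single pool of its animals' RNA, split over 3 arrays of the Affymetrix Mouse Gene 1.0 ST type. The replicates are therefore technical: a p-value here tests pools of RNA, and differences among mice are not in it. The comparisons ask how aspartame, the antagonist and their combination changed adrenal gene expression.

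Signals are log2 values, with 1 unit a 2-fold difference. Each of the 26533 deposited probe sets has a signal of 6 or more somewhere among the 12 arrays, so weaker ones are not in the table. A gene was tested where its mean was at least 6 in at least 1 group (15900 genes). It was called at a limma adjusted p under 0.05 and at least 1.4-fold in either direction. The tissue's own markers were bright on every array. The mean signal of 8 adrenal cortex genes was 12.88 to 12.9 on CON arrays and 12.62 to 12.67 on ASP arrays, and that of 8 chromaffin genes 11.7 to 11.75 and 11.29 to 11.35, with 2 of 8 called lower in ASP in each list. Markers of other cells differed between pools as well. The mean of 9 neuron markers was 8.03 to 8.06 on CON arrays, 8.08 to 8.13 on CGP arrays, 10.502 to 10.56 on ASP arrays and 8.11 to 8.22 on ASP+CGP arrays. The mean of 8 hepatocyte markers was 11.48 to 11.53 on CON arrays, 12.08 to 12.16 on CGP arrays, 10.596 to 10.65 on ASP arrays and 10.12 to 10.24 on ASP+CGP arrays. Fewer cells of a type and less RNA per cell cannot be told apart in such pools.

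The receptor genes were a low-signal class in the adrenal gland. Their median signal was 6.03 in CON, 5.97 in CGP, 5.99 in ASP and 6.40 in ASP+CGP, against 8.14, 8.17, 8.14 and 7.99 for the other genes. In CON, 52.2% of the receptor genes and 92.7% of the other genes had a mean of at least 6, and 20 receptor genes had a mean of at least 7. The receptor genes with a mean of at least 6 numbered 109 in CON, 97 in CGP, 103 in ASP and 184 in ASP+CGP. On single arrays those at 6 or more numbered 99 to 116 in CON, 96 to 120 in CGP, 86 to 118 in ASP and 163 to 194 in ASP+CGP. These counts and medians are descriptions only, since 64 of the 209 genes reached 6 on no array outside ASP+CGP. The spread between arrays of a pool was wider than for other genes, with a median SD of 0.151 against 0.0907, and against 0.122 for other genes of similar brightness (mean 5.5 to 7).

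**Figure D1:**
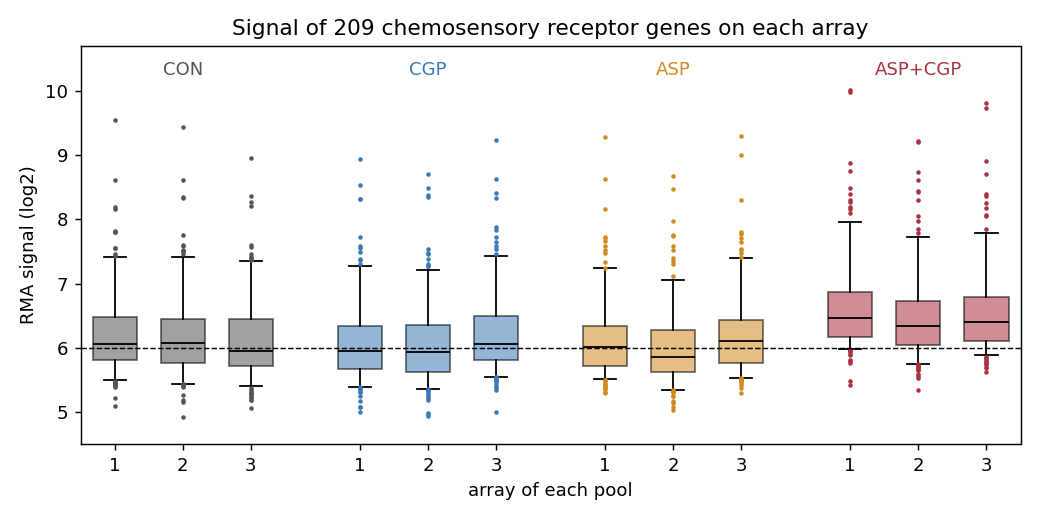
Signal (log2) of the 209 receptor genes on each of the 12 arrays, 3 per pool. Boxes give the quartiles and median, whiskers the 5th and 95th percentiles, points the genes outside them, and the dashed line the level of 6. The medians lie between 5.86 and 6.11 on the CON, CGP and ASP arrays and between 6.33 and 6.46 on the ASP+CGP arrays.

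The brightness minimum of the deposited table bears on every count over these genes. Besides the 64 that reached 6 only on ASP+CGP arrays, 1 did so only on ASP arrays and 1 only on CON arrays, and 82 reached 6 on no CON array. A gene that entered the table through the ASP+CGP arrays alone had to be higher there. The genes that reached 6 on at least 1 CON array (127, of which 125 were tested) are therefore given apart. In all, 184 receptor genes were tested. The other 25, all Olfr genes, had a mean under 6 in every group.

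The sweet and umami receptor subunits were all in the table, at low signal, and did not pass the test between ASP and CON. Tas1r2, the subunit specific to the sweet receptor, had signals of 6.49, 6.48 and 6.38 on CON arrays, 6.17, 6.29 and 6.65 on CGP arrays, 6.48, 6.23 and 6.74 on ASP arrays, and 6.97, 6.72 and 6.86 on ASP+CGP arrays. The ASP arrays spanned the CON values, and the ASP+CGP arrays lay above all CON arrays. Its difference from CON was 0.03 ± 0.13 (SE, n = 3 arrays per pool; adjusted p = 0.852) in ASP, and 0.40 ± 0.13 in ASP+CGP (adjusted p = 0.011, 1.32-fold), short of the 1.4-fold minimum. Tas1r3, which both receptors share, had signals of 6.92, 6.95 and 6.88 on CON arrays, 6.94, 6.57 and 7.03 on CGP arrays, 6.74, 6.61 and 7.22 on ASP arrays, and 7.30, 7.30 and 7.20 on ASP+CGP arrays. It differed from CON by -0.06 ± 0.13 in ASP (adjusted p = 0.738) and by 0.35 ± 0.13 in ASP+CGP (adjusted p = 0.0294, 1.27-fold). Here too the ASP arrays lay on both sides of CON.

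Tas1r1, the umami subunit, was the one Tas1r gene called in any comparison. Its signals were 6.13, 6.00 and 5.87 on CON arrays, 5.71, 6.01 and 6.06 on CGP arrays, 6.17, 5.80 and 6.31 on ASP arrays, and 6.66, 6.51 and 6.33 on ASP+CGP arrays. It was 1.41-fold higher in ASP+CGP than in CON (0.50 ± 0.13, adjusted p = 0.0029). This call sat at the fold minimum, and it was lost with another scaling of the arrays (0.30 after cyclic loess, adjusted p = 0.0556, and 0.36 after quantile normalization) or without CON array 3 (0.44) or ASP+CGP array 1 (0.42). Other genes of the same brightness lay higher on these arrays too. Of the 3084 other genes with a CON mean of 6 to 7, the median difference between ASP+CGP and CON was 0.24, with an interquartile range of 0.03 to 0.41.

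The bitter receptor genes Tas2r143 and Tas2r135 fell in ASP, against the direction of most receptor genes in the combined group. Tas2r143 had the largest change of any tested receptor gene in ASP against CON. It had signals of 7.56, 7.52 and 7.40 on CON arrays, 7.38, 7.39 and 7.20 on CGP arrays, 6.38, 6.58 and 6.55 on ASP arrays, and 6.86, 7.06 and 6.84 on ASP+CGP arrays. The ASP arrays lay below every other array, and the ASP+CGP arrays between them and the CON and CGP arrays. It fell to 0.505-fold in ASP (-0.99 ± 0.08, adjusted p = 8.67e-08) and to 0.673-fold in ASP+CGP (-0.57 ± 0.08, adjusted p = 4.44e-05). In CGP it differed from CON by -0.17 ± 0.08 (adjusted p = 0.526). The interaction (ASP+CGP minus CGP, less ASP minus CON) was 0.58 ± 0.11 (adjusted p = 7.65e-04).

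Tas2r135, its neighbour, had signals of 6.48, 6.77 and 6.61 on CON arrays, 6.45, 6.48 and 6.16 on CGP arrays, 5.75, 5.86 and 5.89 on ASP arrays, and 5.98, 6.11 and 5.93 on ASP+CGP arrays. Every ASP and ASP+CGP array lay below every CON and CGP array. The gene fell by 0.78 ± 0.09 on the log2 scale in ASP (adjusted p = 4.44e-06) and by 0.61 ± 0.09 in ASP+CGP (0.654-fold, adjusted p = 6.96e-05). Since its ASP mean was under 6, the fold there is a bound, 0.652-fold or less with that mean set to 6. Its interaction was 0.43 ± 0.13 (adjusted p = 0.0135, short of the fold minimum).

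Tas2r143 and Tas2r135 lie next to each other on chromosome 6 in the RefSeq annotation (GRCm38.p6), the first at 42400238 to 42401119 and the second at 42405529 to 42406494. Tas2r126, the next gene, was not analysed here. The genes on the other side differed from the pair in direction or size. Epha1, an ephrin receptor, differed from CON by -0.08 in ASP (adjusted p = 0.481) and by 0.57 in ASP+CGP (adjusted p = 9.84e-05). Zyx, a focal adhesion gene, lay below CON as the pair did, by -0.45 in ASP (adjusted p = 9.61e-06, short of the fold minimum) and by -0.22 in ASP+CGP (adjusted p = 0.00273). Fam131b differed by 1.47 and 0.44. Olfr458, on the far side, differed by -0.12 and 0.42. The sequences around the starts of both bitter receptor genes are shown because these genes moved together. They were taken from RefSeq (GRCm38.p6, plus strand, 250 bases before the annotated start and 50 after it), Tas2r143 at chr6:42399988-42400287 and Tas2r135 at chr6:42405279-42405578. In both the annotated start is the first base of an ATG, so the windows hold the sequence just before the coding start. Capitals mark matches, on either strand, to the E box CANNTG and the homeodomain site TAATTA, the motifs found among the 6 searched.

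Tas2r143: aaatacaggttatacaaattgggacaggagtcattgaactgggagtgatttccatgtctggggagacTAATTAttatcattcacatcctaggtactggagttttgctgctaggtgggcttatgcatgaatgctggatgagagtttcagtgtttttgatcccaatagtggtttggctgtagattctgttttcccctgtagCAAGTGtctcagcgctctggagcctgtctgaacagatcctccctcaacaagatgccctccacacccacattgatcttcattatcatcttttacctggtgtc
Tas2r135: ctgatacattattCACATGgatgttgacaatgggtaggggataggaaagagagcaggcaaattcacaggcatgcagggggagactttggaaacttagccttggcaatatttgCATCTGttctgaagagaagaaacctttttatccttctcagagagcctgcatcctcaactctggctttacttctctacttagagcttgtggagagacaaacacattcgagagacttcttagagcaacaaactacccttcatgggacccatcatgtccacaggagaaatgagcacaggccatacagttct

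The E box matched once in Tas2r143 and at 2 places in Tas2r135, and 72.3% of all 32851 RefSeq windows of this length hold it. TAATTA matched in Tas2r143, and 5.29% of all windows hold it. The TATA box TATAAA, the cyclic AMP response element TGACGTCA, the palindromic Olf/Ebf site and the Nr5a1 site CAAGGTCA had no match in either window. Of the 209 receptor genes, 176 had such a window, and 127 of these windows began their last 50 bases with ATG. TAATTA, in the core of sites bound by factors such as Lhx2, was in 12.5% of them, TATAAA in 25% (13.6% of all windows) and the Olf/Ebf site in 1 window.

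The other bitter receptor genes did not follow this pair. Tas2r138, the mouse counterpart of the human receptor for bitter thiourea compounds, had signals of 5.91, 5.87 and 5.88 on CON arrays, 5.71, 5.61 and 6.18 on CGP arrays, 6.02, 5.72 and 5.96 on ASP arrays, and 6.54, 6.45 and 6.37 on ASP+CGP arrays. Its ASP values lay on both sides of CON, and its ASP+CGP values above all other arrays. Tas2r138 was tested through ASP+CGP alone, the only pool where its mean was at least 6. It was called higher in ASP+CGP against CON (0.56 ± 0.12, adjusted p = 7.96e-04), which is at least 1.37-fold with the CON mean set to 6. That bound is under the 1.4-fold minimum. Since Tas2r138 was tested only through the pool where it was highest, the call is a description only. Tas2r137 and Tas2r117 had means between 5.78 and 6.27 in every group, and neither was called against CON in any group. Tas2r137 differed from CON by -0.30 ± 0.11 in ASP (adjusted p = 0.0237, with the ASP mean under 6). The taste receptor genes are plotted together by array.

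**Figure D2:**
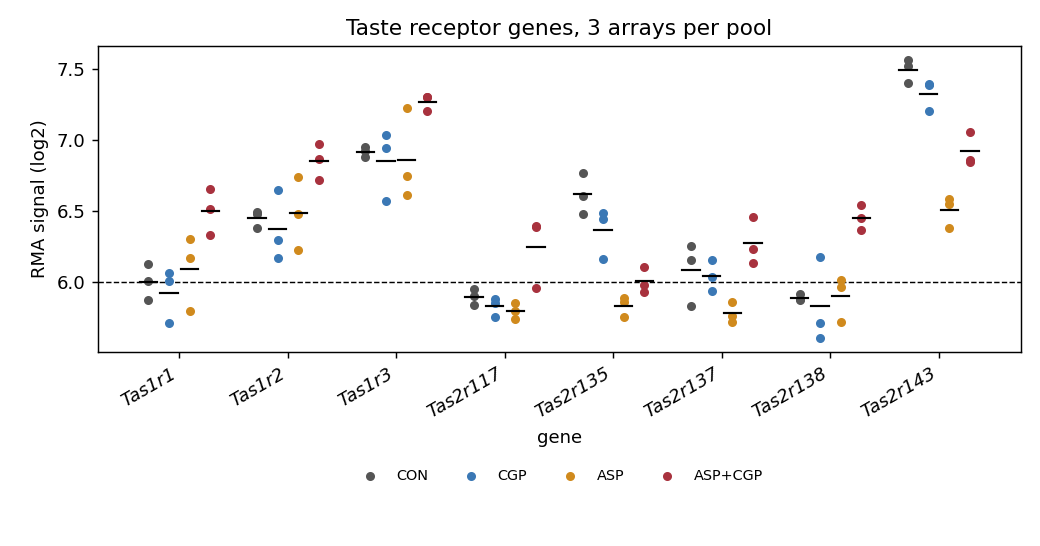
Signal (log2) of the 3 Tas1r and 5 Tas2r genes on the 3 arrays of each pool; points are arrays, black bars the means and the dashed line the level of 6. Tas2r143 and Tas2r135 are lowest in ASP (means 6.51 and 5.83), and the 3 Tas1r genes are highest in ASP+CGP (means 6.50, 6.85 and 7.27).

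The single trace amine-associated receptor gene, Taar5, which in the nose detects trimethylamine, had signals of 5.69, 5.97 and 5.80 on CON arrays, 6.02, 5.78 and 5.88 on CGP arrays, 5.85, 5.61 and 5.95 on ASP arrays, and 6.53, 6.18 and 6.32 on ASP+CGP arrays. The values of the first 3 pools overlapped, and those of ASP+CGP lay above them. Taar5 was tested through ASP+CGP alone, the only pool where its mean was at least 6. It was called higher in ASP+CGP against CON (0.53 ± 0.11, adjusted p = 6.25e-04), which is at least 1.27-fold with the CON mean set to 6. That bound is under the 1.4-fold minimum. Since Taar5 was tested only through the pool where it was highest, the call is a description only. The call was lost with 2 other scalings of the arrays (0.30 after cyclic loess and 0.39 after quantile normalization) and without CON array 1 (0.46) or ASP+CGP array 1 (0.43).

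Among the vomeronasal receptor genes, 2 of 9 were called against CON, both higher in ASP+CGP, where 6.09% of all tested genes were called higher. Vmn1r86 had signals of 6.27, 6.37 and 6.26 on CON arrays, 6.21, 5.98 and 6.21 on CGP arrays, 6.64, 6.52 and 6.38 on ASP arrays, and 7.16, 7.39 and 7.28 on ASP+CGP arrays. It rose 1.97-fold in ASP+CGP (0.98 ± 0.08, adjusted p = 1.32e-06), and its interaction was 0.93 ± 0.12 (adjusted p = 1.99e-05). The ASP arrays lay just above the CON arrays, by 0.21 ± 0.08 (adjusted p = 0.0469, 1.16-fold, not called). Vmn2r60 had signals of 5.10, 4.93 and 5.07 on CON arrays, 5.07, 4.94 and 5.01 on CGP arrays, 5.41, 5.08 and 5.58 on ASP arrays, and 6.06, 6.10 and 5.95 on ASP+CGP arrays. Vmn2r60 reached 6 on ASP+CGP arrays alone, so it entered the table and the test only through the pool where it was highest. The call is thus a description only. The fitted difference in ASP+CGP was 1.01 ± 0.10 (adjusted p = 4.99e-06), but with the CON mean set to 6 the bound was at least 1.03-fold. Vmn2r54 was called higher against ASP (0.58 ± 0.15, adjusted p = 0.0043) but not against CON (0.48 ± 0.15, adjusted p = 0.0111, 1.398-fold). Vmn2r9 went the other way, at -0.47 ± 0.10 in ASP+CGP against CON (adjusted p = 7.70e-04, 0.724-fold, short of the fold minimum).

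In ASP against CON, 1 of 184 tested receptor genes passed upward and 4 passed downward, where 9.81% of all tested genes were called higher and 8.13% lower. The median difference was -0.05, against -0.10 for the other genes. The 1 higher gene was Olfr1148, a class II olfactory receptor gene, with signals of 6.00, 5.78 and 5.61 on CON arrays, 5.69, 5.90 and 5.74 on CGP arrays, 6.23, 6.66 and 6.75 on ASP arrays, and 6.88, 6.74 and 6.70 on ASP+CGP arrays. All 6 arrays of the aspartame pools lay above all 6 arrays of the other pools. Olfr1148 was tested through the aspartame pools alone, where its mean was at least 6, so its calls there are descriptions only. It rose at least 1.46-fold in ASP (0.75 ± 0.12, adjusted p = 1.18e-04) and at least 1.71-fold in ASP+CGP (0.98 ± 0.12, adjusted p = 2.31e-05), with an interaction of 0.25 ± 0.17 (adjusted p = 0.253).

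Besides the bitter receptor pair, Olfr1396 and Olfr1372-ps1 were called lower in ASP. Olfr1396, among the brightest of the class, had signals of 8.16, 8.34 and 8.27 on CON arrays, 8.32, 8.48 and 8.40 on CGP arrays, 7.66, 7.76 and 7.77 on ASP arrays, and 8.10, 8.30 and 8.18 on ASP+CGP arrays. Its ASP arrays lay below all others, and the ASP+CGP arrays overlapped CON. It fell to 0.694-fold in ASP (-0.53 ± 0.07, adjusted p = 1.69e-05), and differed from CON by -0.07 ± 0.07 in ASP+CGP (adjusted p = 0.389). After cyclic loess its ASP difference was -0.38, short of the fold minimum. Olfr1372-ps1, a transcribed pseudogene in RefSeq, had means of 7.10 in CON, 7.02 in CGP, 6.36 in ASP and 6.66 in ASP+CGP, and fell to 0.603-fold in ASP (-0.73 ± 0.13, adjusted p = 2.64e-04).

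In CGP against CON, limma called 0 of 184 receptor genes, and 12 had an unadjusted p under 0.05 (2 higher and 10 lower), as had 9.75% of all tested genes. An ordinary analysis of variance called 0 as well. Across all tested genes 1.62% were called higher and 0.0189% lower. The median difference was -0.04, against 0.00062 for the other genes. The highest gene was Olfr330, named after its values were seen. It had signals of 7.25, 7.10 and 6.98 on CON arrays, 7.56, 7.53 and 7.65 on CGP arrays, 6.65, 6.96 and 6.93 on ASP arrays, and 7.41, 7.29 and 7.06 on ASP+CGP arrays. The CGP arrays lay above all others. Its CGP difference was 0.47 ± 0.10 (1.39-fold, adjusted p = 0.0131), just under the fold minimum, and it was called after cyclic loess (0.49) and without CON array 1 (0.54) or CGP array 2 (0.495).

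In ASP+CGP against CON, 60 of 184 tested receptor genes were called higher, and the bitter receptor pair made up the 2 called lower, where 6.09% of all tested genes were called higher and 8.32% lower. The median difference was 0.40, against -0.17 for the other genes, and 175 of the 184 lay above CON. Among the 125 that reached 6 on a CON array, 37 were called higher, with a median of 0.36. Of the 60 genes, 40 kept at least 1.4-fold when group means under 6 were set to 6. Among the 109 with both means at 6 or more, 34 were called higher (31.2%), against 5.20% of other genes so placed. By array, the median difference from the CON mean was 0.47, 0.30 and 0.42 on the ASP+CGP arrays and between -0.14 and 0.06 on the CGP and ASP arrays. All 3 ASP+CGP arrays lay above all 9 other arrays for 125 of the 184 tested genes (67.9%), and the same held for 14.5% of all tested genes. In the band of CON means from 6 to 7 it held for 67.4% of 89 receptor genes and 35.9% of other genes.

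The ASP+CGP arrays had a narrower range, in which weak genes of all kinds lay higher and bright genes lower, and the size of the receptor difference moved with the scaling of the arrays. Cyclic loess called 19 receptor genes higher and 4 lower of 154 tested, with a median of 0.23, and quantile normalization, added after this narrower range was seen, called 28 higher and 4 lower, with a median of 0.29. Of the 60 genes, 54 were tested after cyclic loess and 18 of these were called, and 55 were tested after quantile normalization and 27 called. Cyclic loess moved the median of all genes from -0.17 to -0.01. Centring each array on its median gave 89 higher and 2 lower of 190 tested. Of all tested genes, cyclic loess called 4.29% higher (679, with 500 lower) and quantile normalization 4.83% (759, with 645 lower). Centring called 9.7% higher (1552, with 661 lower).

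The receptor genes were then set beside other genes of the same CON brightness. With a CON mean under 6, 26 of 75 receptor genes (34.7%) and 141 of 850 other genes (16.6%) were called higher in ASP+CGP, with medians of 0.42 and 0.33. But 59 of these 75 reached 6 on no CON array. Among genes of this band that did reach it, 3 of 16 receptor genes (18.75%) and 35 of 218 other genes (16.06%) were called higher, and both medians were 0.30. From 6 to 7 these were 22 of 89 (24.7%) and 445 of 3084 (14.4%), with medians of 0.35 and 0.24. From 7 to 8, where other genes no longer lay higher, they were 10 of 16 (62.5%) and 243 of 3270 (7.43%), with medians of 0.55 and -0.06. The 3 receptor genes from 8 to 9 had a median of 0.55, against -0.26 for 3445 other genes. Of the 184 receptor genes, 136 lay above the median of the other genes of their band, as did 88 of the 125 that reached 6 on a CON array. Over all 184, the median difference from the band median was 0.13. After cyclic loess 113 of 154 lay above the band median, and the median difference from it over all 154 was 0.15. In ASP against CON 54 of 184 lay above the band median. The receptor genes were not the only family with many calls. Of 21 tested keratin-associated protein genes 15 were called higher in ASP+CGP (median 0.65), and of 15 beta-defensin genes 6 were (median 0.36). Of all tested genes 6.09% were. These families were not split by CON signal. How many of their genes were tested only through the ASP+CGP arrays was not counted. The difference between the receptor genes and other genes was not tested.

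**Figure D3:**
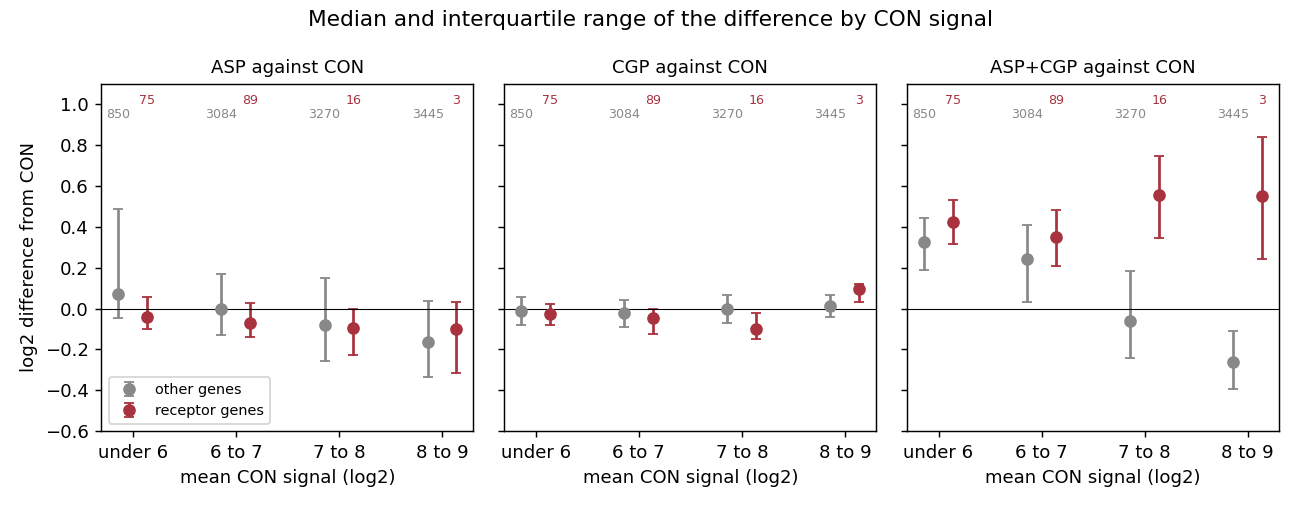
Log2 difference from CON (vertical) by the gene's mean CON signal (horizontal, log2), for ASP, CGP and ASP+CGP. Points are medians, bars interquartile ranges, red the tested receptor genes and grey the other tested genes, with the number of genes above. In ASP+CGP the receptor medians stay between 0.35 and 0.55 in the 4 bands shown, while 59 of the 75 receptor genes under 6 reached 6 on no CON array. Those of other genes go from 0.33 to -0.26.

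Olfactory receptor genes were 166 of the 184 tested, and 55 of them (33.1%) were called higher in ASP+CGP, near the 32.6% of the whole class. Of 133 tested class II genes 46 were called higher (median 0.41), and of 29 class I genes 7 were (median 0.35). Across all tested genes 6.09% were called higher. Olfr1174 had the largest difference, 2.18-fold (1.13 ± 0.17, adjusted p = 7.35e-05). Its signals were 8.61, 8.62 and 8.36 on CON arrays, 8.53, 8.35 and 8.62 on CGP arrays, 8.62, 8.47 and 9.002 on ASP arrays, and 10.02, 9.21 and 9.74 on ASP+CGP arrays. The lowest ASP+CGP array lay above the highest of the others, and RefSeq lists this gene as a pseudogene. Olfr314 rose 2.11-fold (1.08 ± 0.12, adjusted p = 1.25e-05). It had signals of 7.80, 7.59 and 7.37 on CON arrays, 7.73, 7.47 and 7.83 on CGP arrays, 7.72, 7.59 and 7.71 on ASP arrays, and 8.88, 8.43 and 8.70 on ASP+CGP arrays. CON, CGP and ASP overlapped, and ASP+CGP stood above. Olfr320 rose 1.97-fold (0.98 ± 0.18, adjusted p = 3.69e-04), with 5.78 on CON array 3 against 6.52 and 6.48 on the other CON arrays.

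The genes called higher in ASP+CGP against CON had differences from 0.49 to 1.13, with a median of 0.59. Of the 60, 19 were tested with a minimum of 7, 54 after cyclic loess and 55 after quantile normalization. A gene not tested in a setting counts here as not called in it. Counted so, only 15 of the 60 were also called under every alternative filter, scaling, model and left-out array that was run. These were Vmn1r86 and the Olfr genes Olfr1174, Olfr1347, Olfr1349, Olfr1394, Olfr239, Olfr282, Olfr314, Olfr320, Olfr401, Olfr524, Olfr550, Olfr678, Olfr71 and Olfr91. Olfr401, for example, had signals of 7.80, 7.60 and 7.60 on CON arrays, 7.27, 7.31 and 7.54 on CGP arrays, 7.58, 7.52 and 7.40 on ASP arrays, and 8.39, 8.61 and 8.25 on ASP+CGP arrays. It stood at 0.75 ± 0.10 against CON (adjusted p = 2.79e-05), above all other arrays. Olfr550 and Olfr678 are the class I genes among the 15, at 0.66 and 0.54. With the minimum of 7 left aside, Olfr1148 and Olfr316 were called in every setting too.

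Not every bright receptor gene was called higher in ASP+CGP against CON. Olfr767, the brightest of the class, had signals of 9.54, 9.44 and 8.95 on CON arrays, 8.94, 8.70 and 9.24 on CGP arrays, 9.28, 8.68 and 9.29 on ASP arrays, and 9.98, 9.21 and 9.81 on ASP+CGP arrays. The ASP+CGP values overlapped those of CON, and the difference of 0.36 ± 0.21 did not pass (adjusted p = 0.144). Olfr767 was called higher in ASP+CGP against ASP (0.58) and in the interaction (0.93). Olfr239 rose 1.47-fold in ASP+CGP against CON (0.55 ± 0.08, adjusted p = 6.12e-05). Of 7 listed olfactory receptor genes known from tissues outside the nose, Olfr558 and Olfr1393 were in the table. Olfr1393, known from the renal proximal tubule, was called higher in ASP+CGP (0.59 ± 0.16, adjusted p = 0.0043), and Olfr558, known from vascular smooth muscle, differed from CON by 0.16 ± 0.11 (adjusted p = 0.214).

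**Figure D4:**
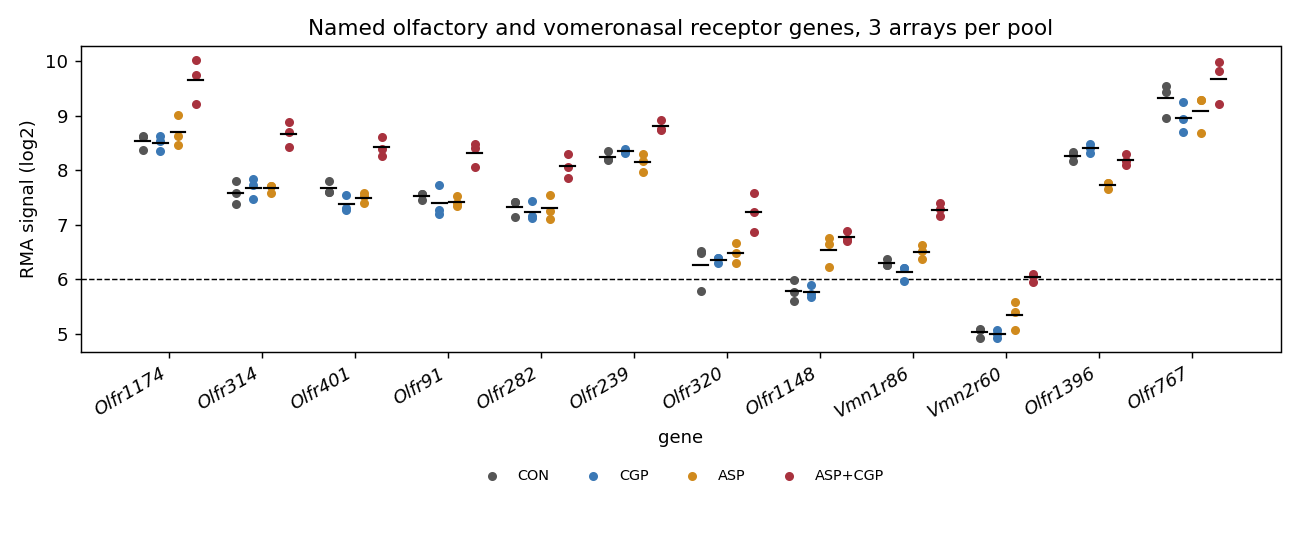
Signal (log2) of 12 named olfactory and vomeronasal receptor genes on the 3 arrays of each pool; points are arrays, black bars the means and the dashed line the level of 6. Olfr1174, Olfr314 and Olfr401 stand apart in ASP+CGP (means 9.66, 8.67 and 8.42), Olfr1148 is high in both aspartame pools, and Olfr1396 is lowest in ASP (mean 7.73).

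Against ASP, which shares the exposure to aspartame, ASP+CGP had 81 of 184 tested receptor genes called higher by limma and 0 lower (median 0.46), where 6.55% of all tested genes were called higher and 13.3% lower. Among the 125 that reached 6 on a CON array, 53 were called higher (median 0.46). At an unadjusted p under 0.05, 167 were higher and 1 was lower, where 67% of all tested genes passed in either direction. The largest differences were those of Olfr314 (0.996 ± 0.12, adjusted p = 8.40e-06), Olfr1174 (0.96 ± 0.17, adjusted p = 2.31e-04), Olfr401 (0.92 ± 0.10, adjusted p = 1.68e-06), Olfr91 (0.89 ± 0.12, adjusted p = 3.10e-05) and Olfr282 (0.77 ± 0.13, adjusted p = 1.56e-04). In the interaction 96 of 184 were called higher and 0 lower (median 0.50), where 9.02% of all tested genes were called higher and 15.5% lower. Among the 125, 63 were called higher (median 0.49). At an unadjusted p under 0.05, 153 were higher and 1 was lower, where 57.5% of all tested genes passed. Olfr401 (1.21 ± 0.14), Olfr91 (1.02 ± 0.18) and Olfr275 (1.02 ± 0.13) had the largest interactions. Olfr275 had signals of 6.14, 6.07 and 6.08 on CON arrays, 5.75, 5.75 and 6.05 on CGP arrays, 5.86, 5.65 and 5.54 on ASP arrays, and 6.47, 6.36 and 6.51 on ASP+CGP arrays, so that ASP and CGP lay below CON and ASP+CGP above it. These comparisons share arrays with those against CON. Cyclic loess called 18 higher and 1 lower against ASP, and 21 higher and 1 lower in the interaction. Of all tested genes it called 3.09% and 4.61% higher, and 2063 and 2427 genes lower.

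Most partners through which these receptors signal were not called in ASP, and a few rose by more than any receptor gene. Of 14 tested genes of olfactory signal transduction, 3 were called higher in ASP against CON, where 9.81% of all tested genes were. The median of the 14 was 0.24. Gnal, the olfactory G protein subunit, which neurons of the striatum also express, rose 7.29-fold (2.87 ± 0.11, adjusted p = 1.22e-11), from a mean of 6.33 in CON to 9.20 in ASP, and stood at 6.26 in ASP+CGP. Slc24a4, a sodium, calcium and potassium exchanger that ends the olfactory response, rose 2.26-fold (1.17 ± 0.10, adjusted p = 1.16e-07). Gng13, a G protein subunit shared by olfactory and taste signalling, rose 1.73-fold (0.79 ± 0.10, adjusted p = 1.26e-05). Of 9 tested vomeronasal signalling genes (median -0.11) 1 was called higher, beside the same 9.81% of all tested genes. This was Gnao1, a G protein subunit abundant in neurons, which rose 4.43-fold (2.15 ± 0.05, adjusted p = 9.68e-14). Omp, the olfactory marker protein, differed by 0.16 ± 0.11 (adjusted p = 0.229).

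Of 13 genes of receptor trafficking and receptor choice (median -0.10), 3 were called higher in ASP (Reep1 at 2.11-fold, Lhx2 at 1.60-fold and Reep2 at 1.57-fold) and 1 lower (Reep6 at 0.629-fold). Across all tested genes 9.81% were called higher in ASP and 8.13% lower. Of 10 tested taste transduction genes (median 0.0014) 2 were called higher, Gng13 and the carbonic anhydrase gene Car4 (1.56-fold), and 1 lower, the G protein subunit Gnb3 (0.620-fold). All 9 neuron markers were called higher in ASP, as were some of these partners, while Reep6 and Gnb3 were called lower. The markers had a median of 2.00 on the log2 scale in ASP, and in ASP+CGP 2 of the 9 were called higher, with a median of 0.02. Their part in the differences of the partners was not tested. Among the 8 olfactory sensory neuron markers of the table, Gnal alone was called higher in ASP, and their mean signal was 6.82 to 6.85 on CON arrays, 6.76 to 6.90 on CGP arrays, 7.29 to 7.35 on ASP arrays and 6.99 to 7.11 on ASP+CGP arrays. Of the 3 taste cell markers measured, Calhm1, Plcb2 and Tas1r3 differed from CON in ASP by 0.22, -0.30 and -0.06, all short of a call.

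In ASP+CGP against CON, 1 of 14 tested genes of olfactory signal transduction was called higher and 1 lower. Of 13 genes of trafficking and choice 1 was called higher and 1 lower. Of 9 vomeronasal and 10 taste genes 0 were called. Across all tested genes 6.09% were called higher and 8.32% lower. The genes called higher, Omp and Rtp1, had CON means of 6 to 7. In that band 445 of 3084 other genes (14.4%) were called higher, with a median of 0.24. Omp rose 1.48-fold against CON (0.56 ± 0.11, adjusted p = 5.21e-04), from means of 6.38 in CON, 6.50 in CGP and 6.54 in ASP to 6.94, and Rtp1, which carries olfactory receptors to the cell surface, rose 1.43-fold (0.51 ± 0.08, adjusted p = 8.95e-05), from 6.50 to 7.02. Other partners of low signal were not called, among them Gnal (-0.08), Stoml3 (0.13), Ano2 (0.20), Rtp2 (0.43) and Calhm1 (0.485, just short of the fold minimum). Of the brighter partners, Adcy3, the olfactory adenylyl cyclase, stood at 9.26 in CON and 9.02 in ASP+CGP (-0.24 ± 0.06, adjusted p = 0.0039, not called). Ric8b, a chaperone of Gnal, fell to 0.698-fold, and Reep6 fell to 0.469-fold. Reep6 moved as the hepatocyte markers did, of which 7 of 8 were called lower in ASP+CGP, and in CGP it rose 1.44-fold where 6 of 8 of those markers were called higher. Their part in its differences was not tested.

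**Figure D5:**
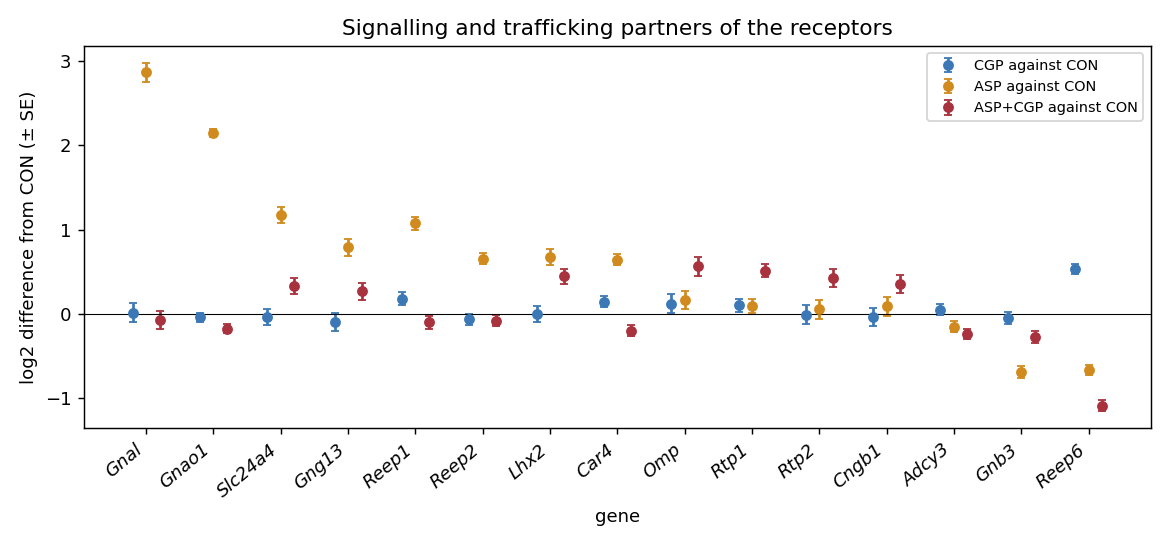
Log2 difference from CON (± SE of the fit, 3 arrays per pool) of 15 signalling and trafficking partners of the receptors, in CGP, ASP and ASP+CGP. Gnal and Gnao1 stand highest in ASP (2.87 and 2.15) and near 0 in ASP+CGP (-0.08 and -0.18), where Omp and Rtp1 are highest (0.56 and 0.51).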

How the data were processed

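Adrenal RNA pools of 4 groups were measured on 3 arrays each (12 arrays). The authors deposited 1 log2 signal for each probe set and array, after RMA in Partek, which in its usual form corrects background, sets all arrays to 1 distribution and summarises probes. There are no read counts, so precision is limited by the 3 arrays a pool. Genes were named through the platform's probe table. Probe sets listed with several genes (40 hold a receptor) were fitted apart. A mean per group was fitted to the 12 arrays with limma 3.58.1 in R 4.3.3 and adjusted by Benjamini-Hochberg within each contrast over 15900 genes. Calls needed at least 1.4-fold and an adjusted p under 0.05. A group mean under 6 was set to 6 for a fold bound. Olfactory genes were classed by the MOR family in RefSeq synonyms (up to 42 is class I). Named genes were up to 5 per direction and contrast with the largest differences (no pseudogene symbols), all Tas1r and Taar genes, receptors known outside the nose, the 5 brightest genes, the 3 Tas2r and 3 vomeronasal genes with the largest differences and up to 4 genes of each partner list. Genes outside this rule (Olfr330, Olfr1372-ps1, Vmn2r9, Olfr550, Olfr678 and others listed by count) were named after their values were seen. The members and lists were chosen with earlier results of these data known. The steps were tested on simulated data. Alternatives covered the filter, the scaling, the model, the arrays in the fit, the replicate number as a block, the probe set, the fold minimum and each array left out.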

Additional observations from a re-analysis of the deposited data

Results flagged for a closer look

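In limma's interaction term 9.02% of all tested genes were called higher and 15.5% lower. The aspartame difference with CGP 39551 and without it differed by that term for 96 of the 184 tested receptor genes. The named genes among them had interactions of 0.99 (Olfr1174), 0.96 (Olfr1393), 0.56 (Olfr239), 1.02 (Olfr275), 0.85 (Olfr282), 0.91 (Olfr314), 1.21 (Olfr401), 0.93 (Olfr767), 1.02 (Olfr91), 0.61 (Tas2r138), 0.58 (Tas2r143), 0.93 (Vmn1r86), 0.59 (Vmn2r54) and 0.71 (Vmn2r60) on the log2 scale. All are positive, but Tas2r143 reached its value as a smaller fall in ASP+CGP than in ASP, while each of the others had its highest mean in ASP+CGP. Of the 96, 33 reached 6 on no CON array, Tas2r138 and Vmn2r60 among them. Both had a mean of at least 6 in ASP+CGP alone, the pool where they were highest, so their interactions are descriptions only. After cyclic loess the interaction was called higher for 21 receptor genes and lower for 1.

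Probe sets listed with several genes entered no count of genes above. Of 40 that hold a receptor symbol, 33 were tested, and 5 were called higher in ASP+CGP against CON and 0 lower, with a median of 0.33. Against ASP 9 were called higher, and in the interaction 10, with 0 lower in each. Of all tested genes, 6.09%, 6.55% and 9.02% were called higher in these comparisons, in that order. In CGP against CON 1 of the 33 was called higher and 0 lower, and in ASP against CON 0 higher and 1 lower. Of all tested genes 1.62% were called higher in CGP and 8.13% lower in ASP.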

How the results depend on the processing

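Of 726 alternative values for 45 named gene differences, 712 stayed on their side of the threshold, 9 were no longer called and 5 became called, and 0 called differences changed sign. The count of receptor genes called moved with the filter, the scaling and the fold minimum. With a mean of at least 7 required in a group, 35 receptor genes were tested, and 3 were called in ASP, 20 in ASP+CGP against CON, 23 against ASP and 26 in the interaction, with medians of 0.54, 0.58 and 0.64 in the last 3. Cyclic loess gave 1 call in CGP, and 23, 19 and 22 in the last 3, with medians of 0.23, 0.25 and 0.25. Quantile normalization, chosen after the data were seen, gave 32, 36 and 37, with medians of 0.29, 0.34 and 0.36. With no fold minimum 21 were called in ASP, 2 in CGP, 151 in ASP+CGP against CON and 164 against ASP. The share of all tested genes was not counted for the minimum of 7, for no fold minimum or with an array left out. But limma's unadjusted p was under 0.05 for 59.7% of all tested genes in ASP and 9.75% in CGP. In ASP+CGP it was so for 75% against CON and 67% against ASP. Of the 184 receptor genes, 152 were then higher and 4 lower against CON, and 6 higher and 25 lower in ASP. Among all genes called in ASP+CGP against CON, 42.3% were higher, 70.1% with each array centred on its median, 57.6% after cyclic loess and 54.1% after quantile normalization. Leaving out 1 array gave 5 to 6 calls in ASP, 0 to 1 in CGP (Olfr330, without CON array 1 or CGP array 2), 52 to 84 in ASP+CGP against CON, 57 to 98 against ASP and 79 to 120 in the interaction. The medians then ranged from -0.10 to -0.0037 in ASP, -0.09 to -0.01 in CGP, 0.37 to 0.45 in ASP+CGP against CON, 0.42 to 0.50 against ASP and 0.44 to 0.57 in the interaction. The cause of these moves was not tested. Deviations of same-numbered arrays correlated at -0.15 to 0.38 (median 0.08), and those of other numbers at -0.39 to 0.28 (median -0.07). The highest were among array 2 of CGP, ASP and ASP+CGP (0.31, 0.37 and 0.38) and between array 3 of CGP and ASP (0.35). Array 2 of CON correlated with array 2 of CGP, ASP and ASP+CGP at 0.01, 0.07 and -0.01. What the replicate numbers share was not tested. With the replicate number as a block the counts were 5, 0, 62, 81 and 96, as without it. Signals near 6 limit what the receptor genes can show, since folds there are bounds.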

Other observations

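A pair of probe sets listed with the clustered genes Olfr331, Olfr329, Olfr330, Olfr328, Olfr325 and Olfr224 were, like the single-gene probe set of Olfr330, highest in CGP and lowest in ASP. One had means of 7.56 in CON, 7.98 in CGP, 7.14 in ASP and 7.65 in ASP+CGP, and the other 7.70, 8.19, 7.11 and 7.57, while Olfr330 itself had 7.11, 7.58, 6.85 and 7.25. Whether these probe sets measure separate transcripts was not tested.

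The probe sets of a gene did not always give the same size of difference. Olfr54 differed between ASP+CGP and CON by 0.57 at its brighter probe set and by 0.21 at the other, and between ASP and CON by -0.13 and -0.59. Vmn1r208 differed between ASP+CGP and CON by 0.14 and 0.20.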
